A study of Homo sapiens with 4 samples.

Results

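The genes described here encode enzymes of heme synthesis: ALAS1, ALAD, UROS, UROD, CPOX, PPOX and FECH. They were picked by symbol from a list of 7, with the brightest probe set for each gene, among probe sets that the platform annotation assigns to a single gene. All 7 were measured, out of 18417 genes in all. The list was drawn up because FECH rose in this comparison, so the rise of FECH is given as a description. The SE, interval and call printed for FECH come from the same values and are no test of that rise.

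RNA of H1299 cells, an established human line from a non-small cell lung carcinoma that has no p53 of its own, was hybridised to whole-transcript Affymetrix arrays. The cells carried a stable tet-on construct for wild-type mouse p53. The induced cells had received 0.5 µg/mL doxycycline for 24 hours to turn the construct on, and the uninduced cells were the same line before induction. Both were kept in DMEM with 10% tetracycline-free serum, and 2 arrays were run for each group, 4 in all. The labels call the arrays of a group technical replicates, so the spread between them, and every SE and p-value below, may be technical only. All cells came from a single construct line, and no sample had doxycycline without the construct. The question is which transcripts change when cells without p53 are made to express it.

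Heme is made in steps that begin in the mitochondrion, pass through the cytosol and end in the mitochondrion. ALAS1 joins glycine and succinyl-CoA to 5-aminolevulinic acid and is the rate-limiting enzyme outside the red cell lineage; heme itself represses it. ALAD, UROS and UROD act in the cytosol, CPOX and PPOX oxidise the porphyrinogens in the mitochondrion, and FECH, ferrochelatase, inserts ferrous iron into protoporphyrin IX. Inherited defects of enzymes of this pathway cause the porphyrias, and cells given 5-aminolevulinic acid accumulate fluorescent protoporphyrin IX where its conversion to heme is slow.

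The start regions of FECH and ALAS1 are shown because these are the last and the rate-limiting enzyme, and because their transcripts moved in opposite directions after induction. Each stretch has 300 bases, 250 before the gene start and 50 after it, from RefSeq on GRCh38.p14. The FECH stretch is chr18:57586653-57586952 on the minus strand, and capitals mark matches to GGGCGG, the GC box, on either strand. The ALAS1 stretch is chr3:52197833-52198132 on the plus strand, and capitals mark matches to TGCGCA, the core of the nuclear respiratory factor 1 site, which reads the same on both strands.
FECH: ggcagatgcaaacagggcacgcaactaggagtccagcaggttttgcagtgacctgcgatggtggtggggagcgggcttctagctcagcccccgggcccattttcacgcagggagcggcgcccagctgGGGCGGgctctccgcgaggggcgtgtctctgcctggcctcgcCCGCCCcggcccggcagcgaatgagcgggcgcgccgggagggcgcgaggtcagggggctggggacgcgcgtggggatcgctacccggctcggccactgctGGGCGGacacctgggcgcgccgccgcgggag
ALAS1: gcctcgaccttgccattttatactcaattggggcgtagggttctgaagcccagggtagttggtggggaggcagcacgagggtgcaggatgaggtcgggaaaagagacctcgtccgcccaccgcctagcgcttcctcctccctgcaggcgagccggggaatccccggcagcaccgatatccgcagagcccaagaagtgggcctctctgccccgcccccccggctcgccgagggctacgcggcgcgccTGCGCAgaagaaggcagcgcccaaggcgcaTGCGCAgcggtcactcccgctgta
The GC box matched at 3 positions in FECH, beginning at bases 128, 170 and 270 counted from the 5′ end of the stretch. It was found in 7 of 8 windows of the 6 enzymes that have a window in the table, and in 45.0% of all 35116 windows of the same length. The motif TGCGCA matched at 2 positions in ALAS1, at bases 247 and 277, in none of the other windows of these enzymes, and in 8.24% of all windows. The p53 decamer consensus, searched on both strands, matched in 0 of the 8 windows and in 6.63% of all windows. The E-box CACGTG, read on both strands, matched in 0 of the 8 and in 7.26% of all. No matches of different motifs overlapped in these windows. G and C made up 74.0% of the FECH stretch and 67.0% of the ALAS1 stretch, against a median of 58.7% over all windows. A match or its absence describes only these letters in this window.

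FECH rose and ALAS1 fell after induction, with UROS higher, PPOX lower and ALAD, UROD and CPOX not past the threshold. The fall of PPOX did not pass the threshold in every setting tried. A gene was called when limma's moderated test gave a Benjamini-Hochberg adjusted p under 0.05 over all 18417 genes. By that rule 2 of the 7 enzymes were called higher and 2 lower, where 20.6% of all genes were called higher and 24.6% lower (45.1% in either direction). In 6 of the 7 the induced and uninduced arrays did not overlap, as in 66.8% of all genes. The list was chosen on this contrast, so nothing is read from these counts. The median log2 fold change of the 7 was 0.145, against 0.0 over all genes. In a bulk extract a change in the share of cells that express a gene cannot be told apart from a change in RNA per cell.

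FECH (probe set 8023466) stood at 11.27 and 11.22 log2 units on the induced arrays, against 8.90 and 8.81 on the uninduced arrays. The lowest induced value lay 2.32 log2 units above the highest uninduced value, more than the differences within either group. The difference of the means was 2.39 (SE 0.085), or 5.24-fold (95% interval 4.56 to 6.02). It ranked 157 from the top among all 18417 genes. With each array left out in turn, the difference of the means lay between 2.345 and 2.435. This range comes from the values the list was chosen on and is no test of the rise.

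ALAS1 (probe set 8080184), the entry point of the pathway, had 9.09 and 9.14 log2 units on the induced arrays and 9.71 and 9.61 on the uninduced arrays. The groups did not overlap and lay at least 0.47 apart. The transcript fell by 0.545 on the log2 scale (SE 0.086), which is 1.46-fold lower after induction. ALAS2, the erythroid form of the same enzyme, had 6.61 and 6.40 log2 units induced and 6.41 and 6.49 uninduced, with overlapping groups. Its log2 fold change was 0.055 (95% interval -0.18 to 0.29), and limma's test gave it an adjusted p of 0.721.

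The cytosolic enzymes did not move together. ALAD (probe set 8163509), which condenses 5-aminolevulinic acid to porphobilinogen, had 7.63 and 7.56 log2 units induced and 7.48 and 7.32 uninduced. Its groups were separated by 0.08 and its log2 fold change was 0.195 (SE 0.093, 95% interval -0.023 to 0.41), not past the threshold. UROS (probe set 7936937), which closes the ring to uroporphyrinogen III, had 10.17 and 10.25 log2 units induced and 9.42 and 9.31 uninduced. Both induced arrays lay at least 0.75 above the uninduced ones, and UROS rose 1.80-fold (log2 fold change 0.845, SE 0.088). UROD (probe set 7901073), which decarboxylates uroporphyrinogen, had 9.92 and 9.91 log2 units induced and 10.02 and 9.88 uninduced. The UROD groups overlapped, with a log2 fold change of -0.035 (95% interval -0.24 to 0.17).

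Of the mitochondrial oxidases ahead of FECH, CPOX was not called and PPOX was called lower. CPOX (probe set 8089072), coproporphyrinogen oxidase, had 8.27 and 8.34 log2 units induced and 8.22 and 8.10 uninduced. The groups were 0.05 apart, and the log2 fold change of 0.145 (95% interval -0.063 to 0.35) was not past the threshold. PPOX (probe set 7906688), protoporphyrinogen oxidase, had 6.51 and 6.08 log2 units induced and 6.75 and 6.76 uninduced. Its mean level was dim, below the 40th percentile of all genes, so the filter on dim probe sets left it out. PPOX fell by 0.46 (SE 0.14), but its induced arrays differed from each other by almost as much as the groups did. The call of PPOX ended without induced array 2 (log2 fold change -0.245, adjusted p = 0.0646 in limma's test), without uninduced array 1 (adjusted p = 0.263), without uninduced array 2 (0.276), with the replicate number as a block (0.0977) and over all rows of the table (0.088).

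**Figure D1:**
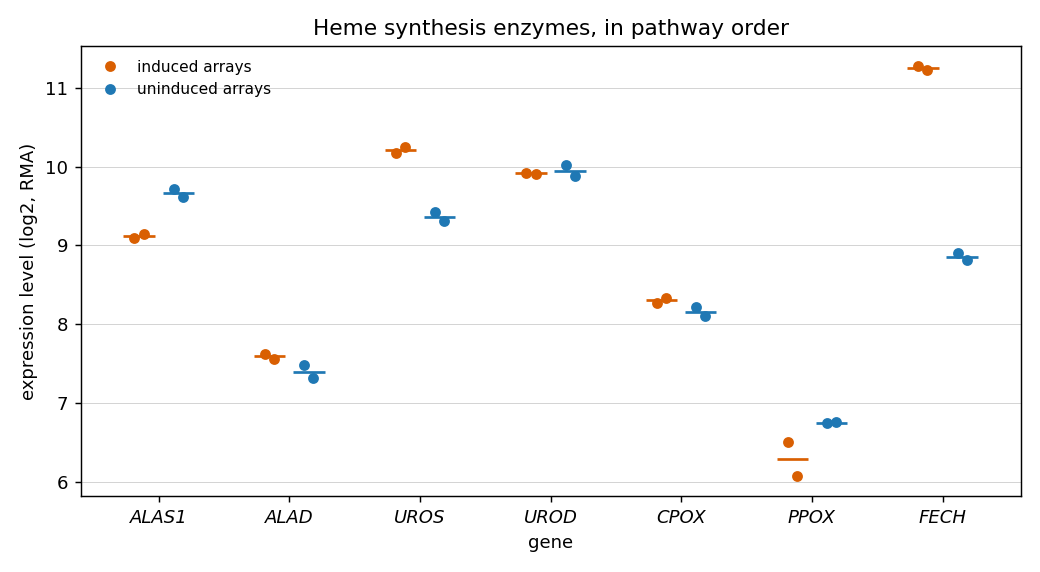
Expression level (log2 units) of the 7 heme synthesis enzymes in pathway order on each array, with 2 induced arrays at the left and 2 uninduced arrays at the right of each gene and short lines at the group means. FECH lies at 11.27 and 11.22 induced, against 8.90 and 8.81 uninduced, while UROD overlaps; levels of different genes are not comparable on this array.

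Set against the whole array, FECH lay far out in the distribution and the other enzymes lay within its body. UROS ranked 1522 from the top of 18417 genes, ALAS1 ranked 2821 and PPOX 3315 from the bottom. Changes of at least 2-fold were called for 6.48% of all genes upward and 6.77% downward, and none of the other 6 enzymes changed by that much. The place of FECH in this distribution follows from how the list was chosen and is a description.

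**Figure D2:**
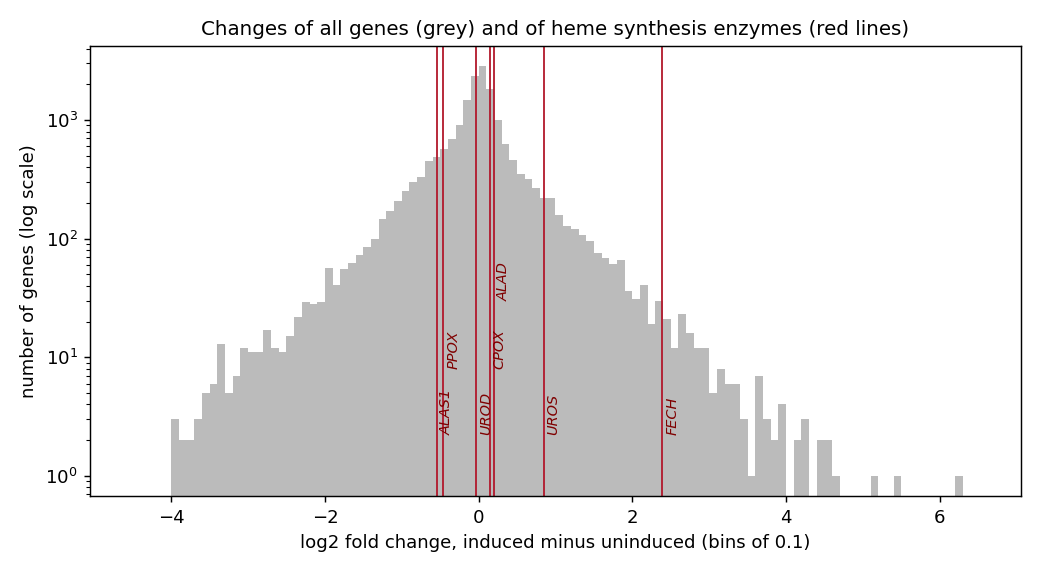
Number of genes (log scale) by log2 fold change, induced minus uninduced, in bins of 0.1 for 18417 genes, with red lines at the 7 enzymes. FECH stands at 2.39 in the right tail and UROS at 0.845, while ALAS1 at -0.545 and PPOX at -0.46 lie left of 0.

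The genes whose values over the 4 arrays were most like those of FECH were found by the Euclidean distance between profiles, each centred on its own mean. They were SUSD2 (distance 0.0296 log2 units), EPHB4 (0.0698), IRF1 (0.0707), MC1R (0.0748) and CES2 (0.0878). SUSD2 had 9.93 and 9.92 log2 units induced and 7.58 and 7.48 uninduced. EPHB4, an ephrin receptor kinase, had 11.38 and 11.32 induced and 9.03 and 9.00 uninduced, and IRF1, an interferon regulatory factor, 9.77 and 9.82 induced and 7.45 and 7.36 uninduced. With 2 groups of 2 arrays such likeness chiefly reflects a similar size of change, between 4.96-fold for CES2 and 5.31-fold for MC1R. Among the other heme enzymes UROS was nearest, at a distance of 1.55, and ALAS1 farthest, at 2.94.

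On chromosome 18 the measured gene just before FECH in the RefSeq gene order of GRCh38.p14 also rose, whereas those after it fell. ONECUT2 (probe set 8021357), a homeodomain transcription factor gene, had 10.33 and 10.39 log2 units induced and 7.59 and 7.75 uninduced, a 6.45-fold rise (log2 fold change 2.69, SE 0.092, adjusted p = 1.04e-06 in limma's test). NARS1, the cytosolic asparaginyl-tRNA synthetase, had 10.30 and 10.39 induced and 11.10 and 11.05 uninduced and fell by 0.73 (SE 0.085). The antisense gene ATP8B1-AS1 fell by 0.58 (SE 0.083). ST8SIA3, a sialyltransferase gene, had 5.15 and 4.62 induced and 5.04 and 4.80 uninduced, with overlapping groups and a log2 fold change of -0.035 (SE 0.17). Over the 28 genes that flank the 7 enzymes, 2 on either side, 4 were called higher and 15 lower, where 20.6% of all genes were called higher and 24.6% lower. DHX32, an RNA helicase gene near UROS, rose 2.90-fold and TWF2, an actin-binding protein gene near ALAS1, 2.30-fold.

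**Figure D3:**
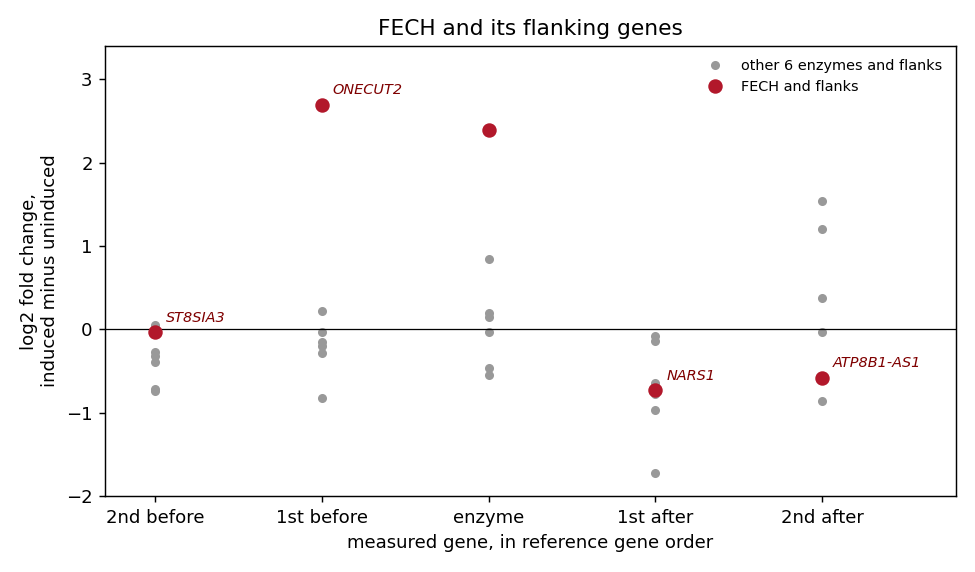
Log2 fold change, induced minus uninduced, of each enzyme and of the 2 measured genes before and after it in reference gene order; red points are FECH and its flanks, grey points the other 6 enzymes and theirs. ONECUT2 at 2.69 and FECH at 2.39 stand above every grey point, and NARS1 at -0.73 lies below 0.

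Porphyrins, heme and iron cross membranes at several steps, and genes of these carriers changed in both directions, with the largest rise in ABCG2. Of 12 carrier genes measured, 6 rose, 2 fell and 4 were not called, with a median log2 fold change of 0.21 against 0.0 over all genes, of which 20.6% were called higher and 24.6% lower. ABCG2, a plasma membrane pump that exports protoporphyrin IX and many drugs, had 8.51 and 8.76 log2 units induced and 5.47 and 5.40 uninduced. That is a 9.19-fold rise (log2 fold change 3.20, SE 0.11, adjusted p = 8.92e-07 in limma's test). ABCB6, a porphyrin transporter, had 9.66 and 9.71 induced and 8.22 and 8.28 uninduced and rose 2.70-fold (SE 0.083 on the log2 scale). SLC25A39, a mitochondrial carrier needed for glutathione import and linked to heme synthesis, had 11.13 and 11.23 induced and 9.56 and 9.47 uninduced and rose 3.17-fold (SE 0.088 on the log2 scale). In each of these genes both induced arrays lay above both uninduced ones.

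Smaller rises were those of SLC48A1, which carries heme out of lysosomes, at 1.59-fold, TSPO, an outer mitochondrial membrane protein that binds porphyrins, at 1.36-fold, and SLC25A38, the mitochondrial glycine carrier that supplies ALAS, at 1.27-fold. The calls of TSPO and SLC25A38 ended when single arrays were left out: that of SLC25A38 whichever of the 4 was left out, and that of TSPO without induced array 1, induced array 2 or uninduced array 2. Over all rows of the table (adjusted p = 0.0542 in limma's test) and with the replicate number as a block, SLC25A38 was not called either. The mitochondrial iron importers, the mitoferrins, were lower. SLC25A28, mitoferrin 2, had 7.60 and 7.43 log2 units induced and 8.26 and 8.36 uninduced and fell by 0.795 (SE 0.096). SLC25A37, mitoferrin 1, had 9.24 and 9.33 induced and 9.81 and 9.73 uninduced and fell by 0.485 (SE 0.087), a call lost without uninduced array 1. The carriers not called were ABCB10, an inner mitochondrial membrane transporter, with a log2 fold change of 0.08, TMEM14C, which brings porphyrinogens into the mitochondrion in red cell precursors, with 0.025, and FLVCR1 and FLVCR2, with -0.055 and -0.115. Their adjusted p-values in limma's test lay between 0.409 for FLVCR2 and 0.861 for TMEM14C.

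Heme breakdown genes rose apart from the inducible oxygenase. Of 4 measured, 3 rose and 0 fell, with a median log2 fold change of 1.44, beside 20.6% of all genes called higher. BLVRB, biliverdin reductase B, had 11.19 and 11.24 log2 units induced and 9.12 and 9.04 uninduced and rose 4.39-fold (log2 fold change 2.135, SE 0.084). BLVRA, which reduces biliverdin to bilirubin, had 9.43 and 9.65 induced and 7.62 and 7.62 uninduced and rose 3.78-fold (SE 0.099 on the log2 scale). HMOX2, the constitutive heme oxygenase, had 10.58 and 10.57 induced and 9.66 and 9.56 uninduced and rose 1.95-fold (SE 0.085 on the log2 scale). HMOX1, the heme oxygenase induced by heme and oxidative stress, had 9.87 and 9.65 induced and 9.83 and 9.78 uninduced, with overlapping groups and a log2 fold change of -0.045 (95% interval -0.28 to 0.19, adjusted p = 0.774 in limma's test). The 3 breakdown calls held whichever array was left out.

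**Figure D4:**
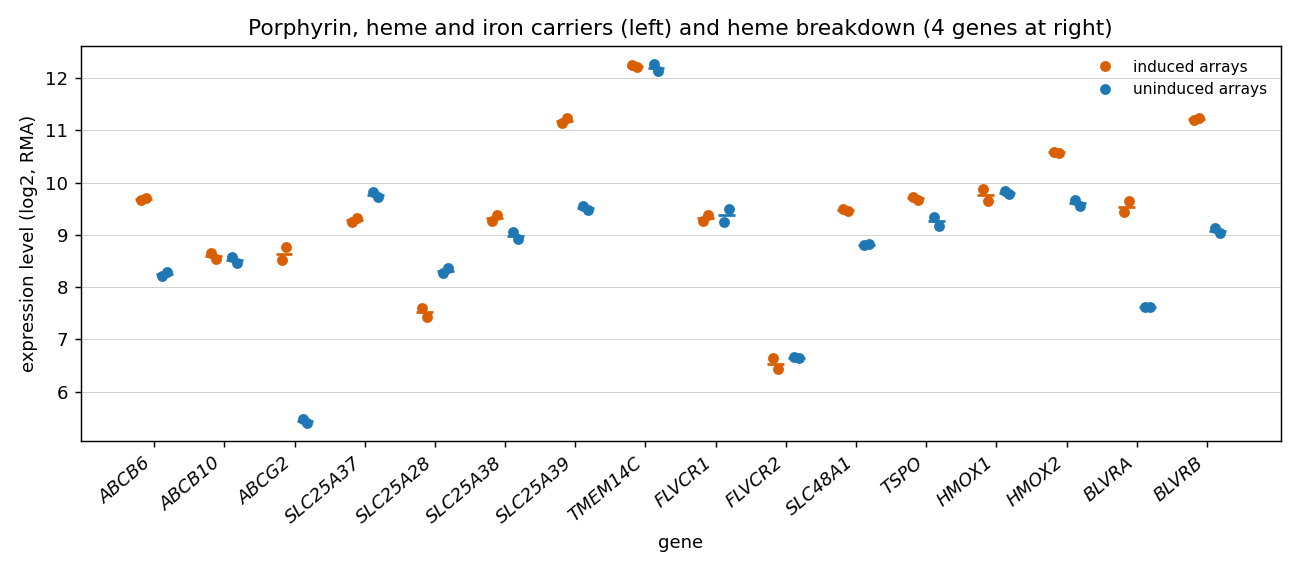
Expression level (log2 units) of 12 carrier genes and, at the right, 4 heme breakdown genes, with 2 induced arrays left of 2 uninduced arrays for each gene and short lines at the group means. ABCG2 lies at 8.51 and 8.76 induced, against 5.47 and 5.40 uninduced, and BLVRA and BLVRB are also separated by more than their spread, while HMOX1 overlaps.

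Among 7 genes that control heme synthesis, 1 rose, 2 fell and 4 were not called, a share near the 45.1% of all genes called in either direction. NRF1, nuclear respiratory factor 1, which activates nuclear genes of mitochondrial proteins including ALAS1, had 7.74 and 7.85 log2 units induced and 8.48 and 8.54 uninduced and fell by 0.715 (SE 0.087, adjusted p = 0.000339 in limma's test). The core of its site is in capitals in the ALAS1 stretch shown earlier, a motif present in 8.24% of all windows. Whether the NRF1 level had any part in the ALAS1 level was not tested. CLPP, the mitochondrial protease that works with CLPX to turn over ALAS1, fell by 0.49 (SE 0.086), a call lost without uninduced array 1, while CLPX had a log2 fold change of 0.025. BACH1, the heme-sensing repressor of HMOX1, rose 1.21-fold with an adjusted p of 0.0478 in limma's test, and that call was lost whichever of the 4 arrays was left out.

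FECH carries an iron-sulfur cluster, and genes of cluster assembly were taken for that reason. Of 10 measured, 3 rose, 4 fell and 3 were not called, with a median log2 fold change of -0.18, beside 20.6% of all genes called higher and 24.6% lower. ISCU, the assembly scaffold, had 11.21 and 11.25 log2 units induced and 9.84 and 9.68 uninduced and rose 2.77-fold (SE 0.092 on the log2 scale). The ferredoxins, which pass electrons to the machinery, were higher too, FDX2 at 2.04-fold (SE 0.095 on the log2 scale) and FDX1 at 1.90-fold (SE 0.096 on the log2 scale). The genes that fell, GLRX5, HSPA9, LYRM4 and ISCA1, did so by between 0.305 for ISCA1 and 0.70 for GLRX5. The probe sets used for GLRX5 and ISCA1 lie, by their numbers, among probe sets of genes on other chromosomes. Without uninduced array 2 only 2 of these 4 falls were called. The ISCA1 call was also lost with its other probe set, which had 8.85 and 8.62 induced and 8.77 and 8.87 uninduced. The other GLRX5 probe set, among genes of its own chromosome, had a smaller log2 fold change of -0.405 (adjusted p = 0.0303 in limma's test over all rows).

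Iron supply genes shifted in both directions, 3 higher and 3 lower of 6, beside 20.6% and 24.6% of all genes. Genes of uptake were lower. STEAP3, an endosomal ferrireductase, fell by 1.655 (SE 0.096). SLC11A2, the divalent metal transporter, fell by 1.49 (SE 0.082), and TFRC, the transferrin receptor, fell by 1.275 (SE 0.091). TFRC had 9.00 and 9.16 log2 units induced and 10.34 and 10.37 uninduced. ACO1, iron regulatory protein 1, rose 2.02-fold, whereas the smaller rises of the ferritin light chain gene FTL (1.29-fold) and of the iron exporter gene SLC40A1 (1.31-fold) were lost without either uninduced array. SLC40A1 was also dim (6.15 on both induced arrays, 5.77 and 5.74 uninduced), and the filter on dim probe sets left it out.

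Of 15 genes for heme-binding proteins, heme modification or electron supply to heme proteins, 3 rose and 8 fell. The median log2 fold change was -0.28, beside 20.6% of all genes called higher and 24.6% lower. CYB5B, a cytochrome b5 of the outer mitochondrial membrane, had 10.36 and 10.30 log2 units induced and 11.44 and 11.48 uninduced and fell by 1.13 (SE 0.083). DGCR8, the heme-binding partner of the microRNA processing enzyme, fell by 0.795 (SE 0.084). PTGS2, the inducible cyclooxygenase, rose 2.46-fold (SE 0.10 on the log2 scale). It had 7.29 and 7.54 log2 units induced and 6.09 and 6.14 uninduced, and the filter on dim probe sets left it out. Among the 8 falls, that of SDHD, a succinate dehydrogenase subunit, was the smallest (log2 fold change -0.28, adjusted p = 0.0365 in limma's test), and its call was lost whichever array was left out and in 5 other settings. Its probe set lies, by its number, among probe sets of chromosome 1 genes, and the one on its own chromosome, 11, had 9.46 and 9.36 log2 units induced and 9.58 and 9.63 uninduced (adjusted p = 0.165 over all rows). The fall of CYB5A, a cytochrome b5, by 0.31 and the rise of CYC1, cytochrome c1, by 1.23-fold were likewise lost whichever array was left out. Without induced array 1, 1 gene of this list was called higher in place of 3.

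**Figure D5:**
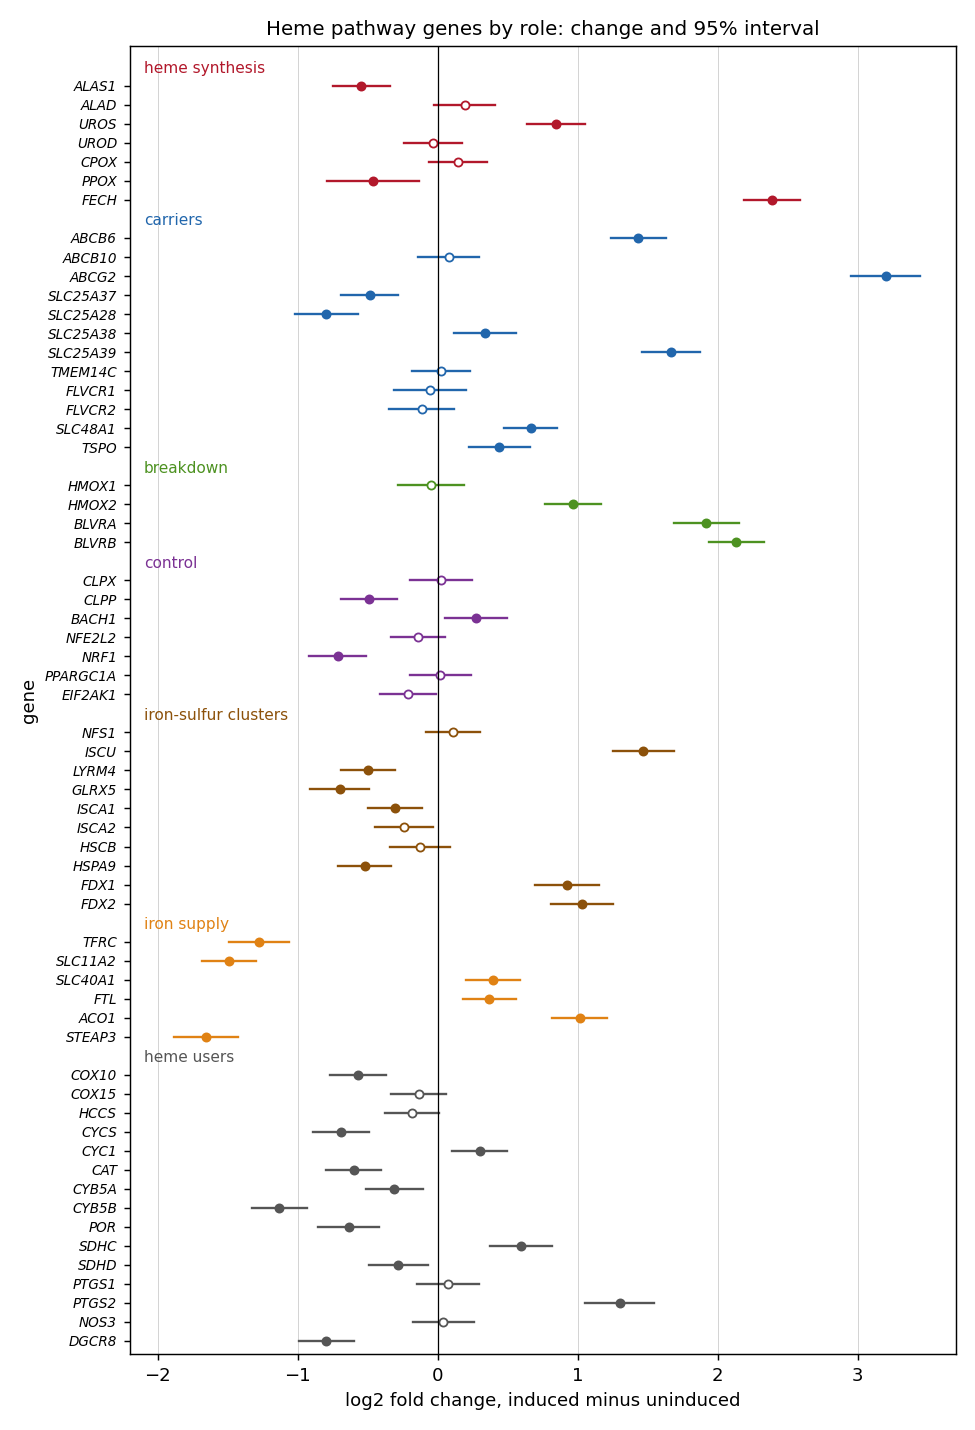
Log2 fold change, induced minus uninduced, with its 95% interval, for genes of heme synthesis and of 6 related lists; filled points were called in limma's test and open points were not. FECH at 2.39, ABCG2 at 3.20 and BLVRB at 2.135 lie farthest right in their lists, and STEAP3 at -1.655 lies farthest left.

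The arrays gave 1 value per probe set and no detection call, and their number limits the precision. Across genes the correlation was 0.995 between the induced arrays and 0.997 between the uninduced arrays, against 0.917 to 0.921 between groups (genes are not independent replicates). CDKN1A and MDM2, textbook p53 targets, had 12.63 and 12.50, and 12.70 and 12.76, log2 units induced, against 9.16 and 9.11, and 9.84 and 9.85, uninduced. The counts of markers called below stand beside 20.6% of all genes called higher and 24.6% lower (45.1% in either direction). Of 10 erythroid markers measured, 1 was called, EPOR, the erythropoietin receptor gene, which rose 1.95-fold. EPOR had 8.74 and 8.66 log2 units induced and 7.79 and 7.68 uninduced. The summed linear level of the 10 markers, EPOR included, was 1382 to 1517 intensity units on induced arrays and 1200 to 1238 on uninduced arrays. Levels of different genes are not comparable on this array, so the sum measures no common rise. HBB and HBD, adult globin genes similar enough to share probes, had log2 fold changes of -0.17 and 0.08, and GATA1 and KLF1, erythroid transcription factors, 0.115 and 0.08, none called. Of 7 hepatocyte markers, 1 was called, SERPINA1 at 3.88-fold, while ALB stayed between 4.49 and 4.63 on all arrays. Of 4 blood cell markers 1 was called, and of 7 fibroblast and endothelial markers 0 were called by limma, with 0 at an unadjusted p under 0.05. Of 6 epithelial or carcinoma line markers, 1 was called higher and 1 lower. KRT8, a keratin gene, had 10.45 and 10.81 log2 units induced and 9.41 and 9.56 uninduced and rose 2.21-fold (adjusted p = 0.00024 in limma's test). VIM, the vimentin gene, had 12.35 and 12.29 induced and 12.69 and 12.75 uninduced and fell by 0.40 (adjusted p = 0.00556 in limma's test). KRT18, not called, lay at 10.98 to 11.17 over all arrays, and the epithelial genes EPCAM and CDH1 lay between 5.39 and 5.94. RMA values have no 0, so no marker is listed at 0. The part of these markers in the heme results was not tested.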

How the data were processed

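The authors deposited 1 table of log2 expression levels, made with Affymetrix Expression Console and RMA per the submitters' processing notes. Versions, build and filters: not given in the sources used here. RMA equalises the arrays' distributions, which hides any shift common to all transcripts and compresses changes of dim genes. Of 33297 rows, 19460 had 1 gene symbol, 1754 several and 12083 none; symbols were updated through gene IDs (19429 found in RefSeq), and the brightest probe set per gene left 18417 genes. Groups came from the sample titles. limma 3.58.1 (R 4.3.3; lmFit, eBayes, constant prior, 2 residual and 7.20 total degrees of freedom) compared induced with uninduced arrays in a two-sided test, and p-values were adjusted by Benjamini-Hochberg over the 18417 genes; the code was tested on simulated data. SEs and 95% intervals are limma's moderated ones. Python 3.11.15, pandas 2.3.3, numpy 2.4.6 and matplotlib 3.10.9 did the rest.

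The members and lists were chosen with earlier results of these data known. Named were all members, every carrier and breakdown gene measured, the 3 largest absolute changes of each other list, the flanks of FECH and the 5 genes nearest to it; further genes, markers among them, and the motifs were chosen after values were seen. Some listed genes were not analysed here. Alternatives were a second quantile normalization, median centring, a filter on dim probe sets (the 40th percentile), averaged probe sets, all rows, another variance prior, the replicate number as a block and leaving out each array.

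Same-numbered arrays of the groups deviated together with a correlation of 0.225 across genes, but the labels call them technical replicates and tie no number to a shared preparation, so they were not paired.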

Additional observations from a re-analysis of the deposited data

Results flagged for a closer look

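SDHC, a heme-binding subunit of succinate dehydrogenase, has a second, dimmer probe set that the comparisons above do not use. It had 9.91 and 10.16 log2 units on the induced arrays, against 9.29 and 9.24 on the uninduced arrays, so a signal above the uninduced level appeared in unused data. Its log2 fold change was 0.77 (adjusted p = 0.00584 in limma's test over all rows), beside 0.595 for the brighter probe set. By the numbering of its neighbours the brighter one lies among genes of chromosome 17, whereas SDHC is on chromosome 1. No search for outlying arrays was possible with 2 per group.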

How the results depend on the processing

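Of 76 fold changes of the 7 enzymes under the alternatives, 68 kept their direction and side of the threshold. PPOX lost its call in 5, and the number of enzymes called lower was then 1 in place of 2: with all rows, with the replicate block (adjusted p = 0.0977 for PPOX), and in 3 of the 4 fits without an array (1 to 2 called lower). Without dim probe sets it was also 1, since PPOX was then not tested. ALAD gained a call after a second quantile normalization (log2 fold change 0.255, adjusted p = 0.0498). UROD, never called, had 0.015 after median centring and 0.035 without uninduced array 1, and ranged from -0.105 to 0.035 without 1 array. The cause of these changes was not tested. The number called higher stayed at 2 whichever array was left out. Genes called over the whole table numbered 8311, 7820 with the replicate block and 4959 to 6904 without 1 array, the lowest without uninduced array 2 and 5043 without uninduced array 1. The block changed no other enzyme's call. Scaling moved the median of all genes by 0.035 (quantile) and 0.05 (centring). Of 144 counts of the related lists, an analysis added after seeing the data, 133 stayed within 1.5 times, and no called gene of these lists changed sign. The arrays came with no detection call, so signal over background was not measured.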

Other observations

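The GLRX5 and SLC25A37 genes each had another probe set with a fall. That of GLRX5, a mitochondrial glutaredoxin, had 9.75 and 9.90 log2 units induced and 10.28 and 10.18 uninduced, a log2 fold change of -0.405 (adjusted p = 0.0303 in limma's test over all rows). That of SLC25A37, mitoferrin 1, had 7.75 and 8.02 induced and 8.58 and 8.69 uninduced, a log2 fold change of -0.75 (adjusted p = 0.0081). Of the genes in the related lists, 4 were represented by a probe set whose neighbours in the numbering lie on another chromosome: GLRX5, ISCA1, SDHC and SDHD. All 7 heme synthesis enzymes had 1 probe set, with neighbours on the gene's own chromosome.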
